A study of Mus musculus with 12 samples.

Results

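The Pkdcc locus is described here as the stretch of mouse chromosome 17 from 82950000 to 83350000 (build mm10) around Pkdcc, with every GLI1 site and every H3K27ac interval that lies in it. It held 9 of the 2605 GLI1 sites of the study, 92 of its 76437 H3K27ac intervals from doxycycline-treated cells and 55 of its 67463 intervals from control cells. The locus was chosen by its dense GLI1 sites, so the number and spacing of the sites are a description and nothing is tested on them. The cells were cardiac progenitors made from mouse embryonic stem cells of the line GLI1-FTA (strain A2Lox.cre) and harvested on day 6 of differentiation. Doxycycline cells (dox) had 500 ng/ml of the drug for 24 hours from day 5, which induced tagged GLI1, and control cells of the same line and day were untreated. Each condition had 2 samples of GLI1 pulldown on streptavidin beads, 2 of H3K27ac immunoprecipitation and 2 of input, and every value below comes from 1 of 3 lists that pool the replicates of dox GLI1, dox H3K27ac or control H3K27ac. All groups came from 1 engineered line, with no doxycycline-treated line lacking the transgene among them, so an effect of the drug and an effect of GLI1 cannot be told apart.

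Pkdcc encodes a secreted tyrosine kinase, also called vertebrate lonesome kinase, that phosphorylates proteins in the secretory pathway and outside the cell. Mice without it have short long bones and a cleft palate. GLI1 is a zinc finger activator at the end of the Hedgehog pathway, which binds DNA at the Gli motif. H3K27ac, acetylation of lysine on histone H3, marks active promoters and enhancers. The comparison asked how this mark was laid out over a locus with many GLI1 sites when GLI1 was induced.

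The start of Pkdcc is shown because the strongest H3K27ac region of the locus covers it. The sequence is that of RefSeq (GRCm38.p6, chr17:83215033-83215332, plus strand, 250 bases before to 50 bases after the start). Capitals mark a GGGTGG core of the Gli motif on the plus strand, from position −48 relative to the start, and an overlapping pair of TATAA matches, from −32 on the plus strand and −33 on the minus strand.
Pkdcc promoter: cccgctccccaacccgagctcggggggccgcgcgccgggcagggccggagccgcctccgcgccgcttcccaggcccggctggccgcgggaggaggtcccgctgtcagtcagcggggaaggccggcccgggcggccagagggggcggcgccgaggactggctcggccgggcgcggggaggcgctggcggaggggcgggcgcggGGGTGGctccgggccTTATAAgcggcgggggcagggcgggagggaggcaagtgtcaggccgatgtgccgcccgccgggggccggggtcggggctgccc

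The 9-base Gli consensus TGGGTGGTC was searched on both strands. Neither an exact copy nor one with 1 mismatch was in these letters, against 0.253% and 6.74% of all 32851 RefSeq promoter windows of this length. The core alone was in 31.5% of the windows and TATAA in 24.9%, so neither match sets this promoter apart. Its G and C content of 82.7% stood beside a median of 52.7%. A non-coding gene, Gm34686, starts 149 bp upstream on the minus strand, and its promoter window shares 248 bp with that of Pkdcc, so H3K27ac here cannot be assigned to either gene. No GLI1 site lay within Pkdcc or its promoter.

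The 9 sites are windows of 101 bp around summits, numbered here from 1 to 9 along the chromosome. They spanned 163558 bp (83075003 to 83238560), with 8 before the start of Pkdcc and 1 beyond its end. Relative to the start of Pkdcc, sites 1 and 2 lay at −140230 and −132869 bp. Sites 3, 4, 5 and 6 lay together between −106765 and −100660 bp, the closest pair 720 bp apart. Sites 7 and 8 lay at −17765 and −15711 bp, and site 9 at 23227 bp, which is 13390 bp past the gene's end. The sites thus formed 3 groups before the gene and a lone site after it, with a stretch of 82895 bp free of sites between sites 6 and 7.

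By the annotation, site 1 lay within the outer bounds of the long non-coding RNA gene Gm19689 (83033592 to 83078225) and sites 3 to 6 within Gm46606 (83098018 to 83115793). The other 4 lay between genes. Exons and introns could not be told apart, since only outer bounds were used. Pkdcc (83215283 to 83225069) was the one protein-coding gene in the window. The nearest others were Eml4, a microtubule-associated protein gene that starts 930 bp past the window, and Slc8a1, the sodium-calcium exchanger gene, whose closest end lay 1211613 bp before it.

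The strength of a site, the authors' −log10 q, ranged from 19.6 to 341 with a median of 37.7, against a median of 30.8 over all 2605 sites. Site 6 (83114573 to 83114673) was the strongest at 341, the 14th highest of the whole list. Site 1 (83075003 to 83075103) followed at 163, in 146th place. Site 4 had 60.9, site 7 had 51.2 and site 9 had 37.7. The other 4 lay under the list's median, with 29.2 at site 8, 26.6 at site 2, 22.7 at site 5 and 19.6 at site 3. Strong and weak sites stood side by side, as in the pair of sites 5 and 6.

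Consecutive windows of 400000 bp across the genome held 0.396 sites on average. Of 6582 such windows 4 held at least 9 sites, and the highest count was 18. No other site was near: the next one before the window lay 1199133 bp away from it (−log10 q 13.4) and the next one after it 614138 bp away (33.4). The peak numbers of the GLI1 list skip 3 values between the first and last site, and what stood there is not stated. In both H3K27ac lists the numbers ran through the window without a gap.

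**Figure D1:**
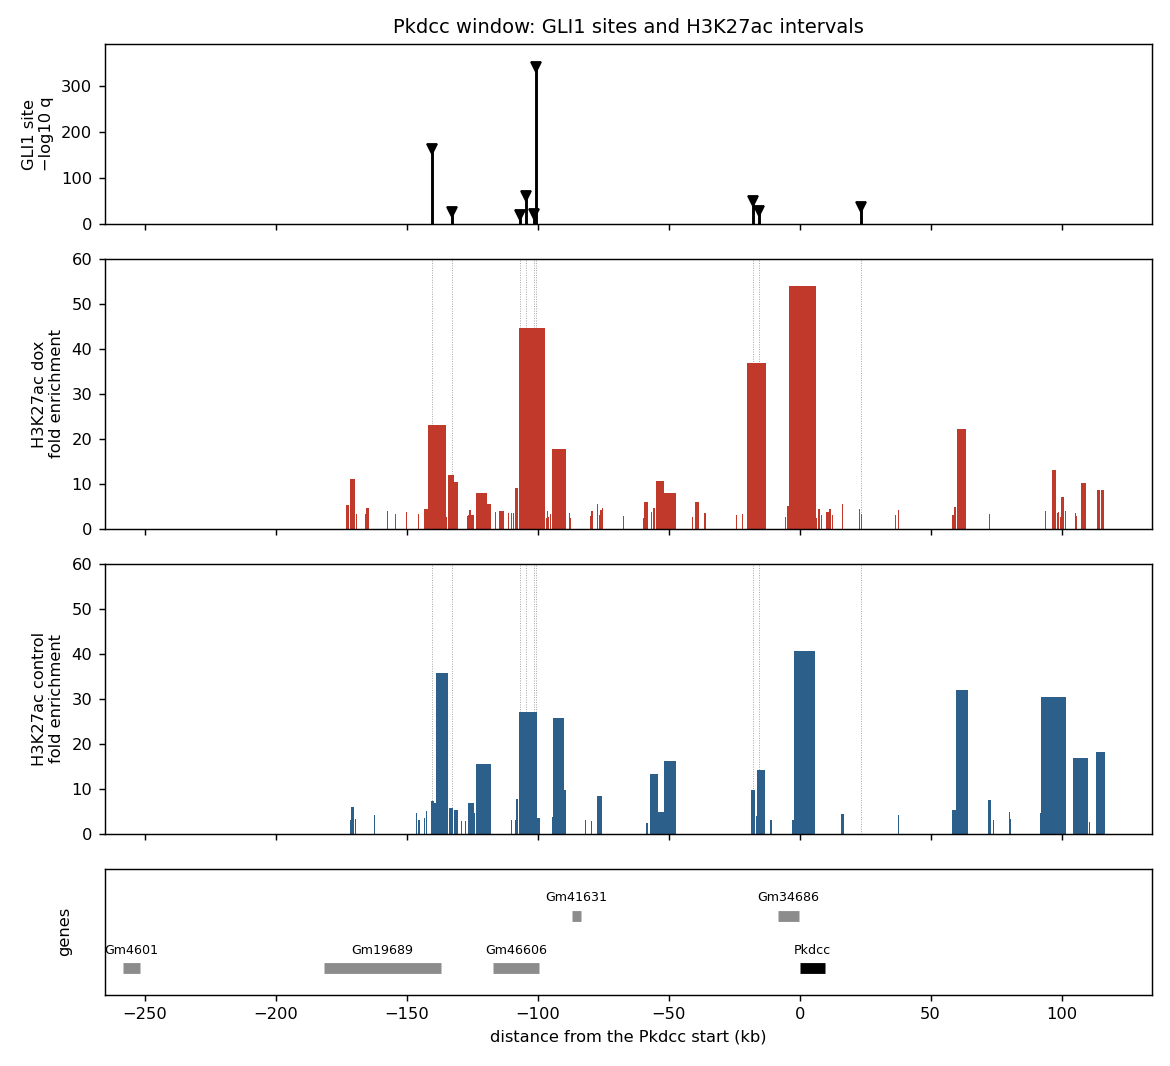
The Pkdcc window, with distance from the Pkdcc start in kb on the horizontal axis. From top to bottom: −log10 q of the 9 GLI1 sites, fold enrichment of H3K27ac intervals in dox cells and in control cells (each bar spans an interval at the height of its strongest summit, dotted lines mark the GLI1 sites), and the outer bounds of Pkdcc (black) and of 5 non-coding genes that lie wholly inside the window (grey; other RNA genes are not drawn). The tallest dox bars stand at the Pkdcc start (54.0) and over sites 3 to 6 (44.6), and the control bars near 100 kb after the start are taller than the dox bars there.

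Most GLI1 sites of the locus lay in acetylated intervals of the control cells as well as of the dox cells. In dox cells 8 of the 9 sites shared at least 1 bp with an H3K27ac interval (88.9%, exact binomial 95% interval 51.8 to 99.7), against 75% of all sites. In control cells the same 8 sites did so (88.9%, 51.8 to 99.7), against 25% of all sites. Both shares describe sites of 1 locus, which are not independent. Site 9 was the exception. It lay in neither list, but between 2 intervals found in dox cells alone, 155 bp from one with a fold enrichment of 4.53 and 161 bp from one with 3.46. The nearest control summit was 6744 bp from it.

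H3K27ac right beside the sites was read from the summits within 1000 bp of each site, taking the highest fold enrichment in each list. Fold enrichment is the authors' ratio of pileup to local background. The log2 ratios of dox over control had the value −0.13 subtracted, the median over every region found in both lists, so that 0 is the typical region. The summit values beside sites were chosen as a measure after the data had been seen. Pileups are the numbers of overlapping fragments, given as reads, recovered from the deposited values. Their ratios are divided by the depth ratio of 1.28 before the log2 is taken, and are not centred. Over all shared regions the pileup ratio had a median of −0.27. Its 95% intervals cover counting error only, since the lists used here pool the replicates.

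At site 1, the strongest summit had a fold enrichment of 23.2 in dox and 7.36 in control cells, a log2 ratio of 1.79. The pileups were 117 and 32 reads, a log2 ratio of 1.51 (0.94 to 2.12). Site 2 had 12.0 in dox and 5.79 in control cells, a log2 ratio of 1.18 (pileup ratio 0.80, 0.16 to 1.47). Dox cells were thus above control cells beside both sites of the group farthest from Pkdcc, and beyond counting error.

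The group at Gm46606 was uneven. Site 3 had 22.3 in dox and 17.8 in control cells, a log2 ratio of 0.45, and site 4 had 31.5 in dox and 27.004 in control cells, a log2 ratio of 0.36. Their pileup ratios of 0.08 (−0.36 to 0.53) and −0.09 (−0.45 to 0.28) did not differ from 0 beyond counting error. Sites 5 and 6, which share their highest summits, had 44.6 in dox and 8.30 in control cells, a log2 ratio of 2.56. There the pileups were 206 and 38 reads, a log2 ratio of 2.08 (1.57 to 2.62). High control acetylation lay at the end with sites 3 and 4, and the steep difference at the end with the strongest site.

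Nearest to the gene, site 7 had 33.1 in dox and 9.87 in control cells, a log2 ratio of 1.88 (pileup ratio 1.70, 1.20 to 2.24). Site 8 had 37.0 in dox and 5.20 in control cells, a log2 ratio of 2.96, the highest of the locus. Its pileups were 173 and 24 reads, a log2 ratio of 2.49 (1.87 to 3.17). Site 8 was below the list's median in strength, so the order of the ratios was not that of −log10 q. Site 9 had 4.53 in dox cells, from a pileup of 22 reads, and no control summit.

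**Figure D2:**
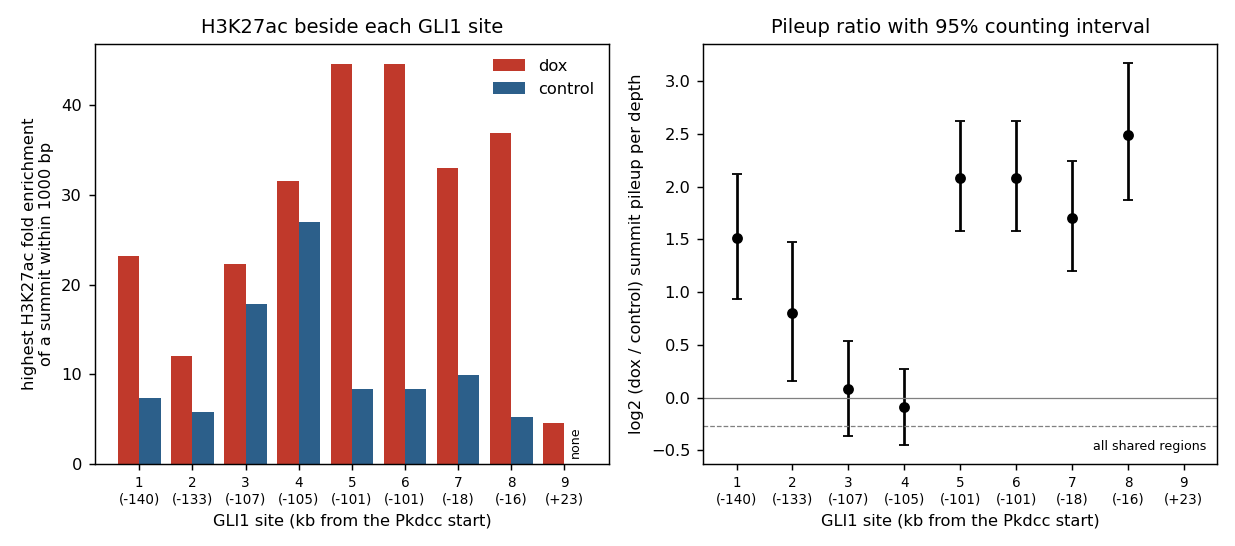
H3K27ac beside the 9 GLI1 sites, in order along the chromosome. Left: the highest fold enrichment of a summit within 1000 bp in dox and control cells (site 9 had no control summit). Right: log2 ratio of dox over control summit pileup per depth with its 95% counting interval, the dashed line at the median of all shared regions. The dox bar is the taller one at each site, and the intervals of sites 3 and 4 include 0.

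The 8 sites with summits in both lists had a median centred ratio of 1.83 (range 0.36 to 2.96). Of all 878 sites with such summits, the median was 1.10. A ratio of at least 1 was reached by 6 of the 8 sites, against 53.2% of all such sites, and 2 of the 6 share their summits. Among the 638 sites that lay in an interval of both lists, the median was 0.87 and the share at or above 1 was 46.7%. The local dox fold enrichment had a median of 31.5 at the locus and 11.2 over the 2397 sites with a dox summit. The local control values had medians of 8.30 at the locus and 7.50 over the 884 sites with a control summit. Most of the 2397 sites had no control summit, so the dox and control medians cover different sets of sites. A dox summit lay a median of 303 bp from the site at the locus and 293 bp over all sites.

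Merging intervals of both lists that share at least 1 bp gave 78 regions in the window. Of these 30 were shared, 38 (48.7%) were in dox cells alone and 10 (12.8%) in control cells alone. Over the whole genome 35.5% of 94481 regions were dox-only and 27.1% control-only. The dox-only regions of the locus were weak, with fold enrichments of 2.36 to 6.14 and a median of 3.46, against 3.51 over all other dox-only regions. Their median thus does not set the locus apart. None held a GLI1 site, against 974 of 33458 over the rest of the genome. The 3 regions of the locus that held sites were all shared, and over the genome 783 shared regions held one. Control-only regions had 2.66 to 4.96. Intervals covered 104521 bp of the window in dox and 93485 bp in control cells. The mean of their highest fold enrichments, weighted by width, was 19.0 in both. In this and the other means weighted by width, an interval counts at its highest summit throughout, so they are not mean signal over the bases.

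The shared regions of the locus lay on both sides of 0. Their median centred log2 ratio was −0.14 (95% interval of the median −0.49 to 0.35), and 14 of the 30 were above 0. That interval takes the regions as independent, although they are neighbours in 1 locus. The median was −0.45 over the 15 regions left at a −log10 q of at least 10, −0.33 over the 22 left after merging intervals up to 500 bp apart, −0.02 by means weighted by width, and −0.45 by pileups, where that of all shared regions was −0.27. A ratio of at least 1 was found in 2 of the 30 (6.78% of all shared regions) and one of −1 or less in 2 (8.31% of all). Both shares are near those of the genome. Dox cells were thus higher beside most of the sites but not over the shared regions of the locus as a whole. Regions found in 1 list alone have no ratio and do not enter here.

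The region at the Pkdcc promoter (83211238 to 83221462) was the strongest of the locus in both lists. It had a fold enrichment of 54.0 in dox and 40.5 in control cells, a centred log2 ratio of 0.55. Among regions it ranked 19th of 68885 in dox and 272nd of 60985 in control cells. The recovered pileups were 249 and 178 reads, a log2 ratio of 0.13 (−0.16 to 0.41), which did not differ from 0 beyond counting error but lay above the genome's median of −0.27. It covered 10225 bp in 1 dox interval, against 8500 bp in 2 control intervals. Measured at gene ends, Pkdcc thus ranked 14th of 10452 protein-coding genes in dox and 200th of 10300 in control cells. Its ratio was under 1, a limit passed by 3.77% of the 9849 genes measured in both lists.

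Of the regions that held sites, that of sites 7 and 8 (83195208 to 83202367) had the highest ratio of the locus. Its fold enrichment was 37.0 in dox and 14.3 in control cells, a log2 ratio of 1.50 (pileup ratio 0.93, 0.52 to 1.35). It was 1 interval of 7160 bp in dox cells and 3 intervals with 5135 bp in control cells. The region of sites 3 to 6 (83107977 to 83117883) had 44.6 in dox and 27.004 in control cells, a log2 ratio of 0.86 (pileup ratio 0.42, 0.09 to 0.76), and ranked 135th of all dox regions. In dox cells it too was a single interval, of 9907 bp, and in control cells 2 intervals with 7824 bp.

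The region of sites 1 and 2 (83073407 to 83084977) had the lower highest summit in dox cells, although dox cells were higher beside both of its sites. Its highest fold enrichment was 23.2 in dox and 35.7 in control cells, a log2 ratio of −0.49 (pileup ratio −0.71, −1.07 to −0.35). By means of the intervals' highest summits weighted by width, 18.3 over 11169 bp in dox and 21.0 over 9399 bp in control cells, the ratio was −0.07. The strongest control summit, at 83078156, lay 3103 bp from the nearest site. Within 1000 bp of that summit dox cells reached 14.2, against 35.7 in control cells, a log2 ratio of −1.20. The pileups were 71 and 149 reads, a log2 ratio of −1.43 (−1.86 to −1.01). The leading peak of this region was thus 1 near site 1 in dox cells and 1 away from both sites in control cells.

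The flanks of the sites were split after the data had been seen, and their median fold-enrichment ratios lay on opposite sides of 0. Before the first site the window held 8 dox-only, 2 control-only and 3 shared regions, the shared ones with a median log2 ratio of 0.21. One of them (83043569 to 83045563), 29439 bp from a site, had 11.1 in dox and 6.10 in control cells, a log2 ratio of 0.99 (pileup ratio 0.75, 0.04 to 1.50). The other shared regions before the first site had pileup ratios of −0.36 (−1.45 to 0.74) and −0.29 (−1.24 to 0.67). Both intervals include 0, so by pileups 1 region alone was above 0 there beyond counting error. Beyond the last site the window held 3 dox-only, 5 control-only and 7 shared regions, the shared ones with a median of −0.60 (−1.07 to 0.08), of which 2 were above 0. The widest (83307612 to 83316995) had 13.2 in dox and 30.4 in control cells, a log2 ratio of −1.07 (pileup ratio −1.53, −1.99 to −1.08). It was broken into 7 intervals with 4289 bp in dox cells, against 1 interval of 9357 bp in control cells. The next 2 shared regions toward Eml4 had 10.2 and 8.78 in dox and 16.8 and 18.3 in control cells, log2 ratios of −0.60 and −0.93. A weaker region (83287259 to 83288497) had 3.35 in dox and 7.51 in control cells, a log2 ratio of −1.03 (pileup ratio −1.14, −2.07 to −0.26). All 4 lay at least 48698 bp from a GLI1 site.

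Between the sites the picture was mixed. A region after site 2 (83091504 to 83097263), 9039 bp from the nearest site, had 8.14 in dox and 15.5 in control cells, a log2 ratio of −0.80. One after site 6 (83120729 to 83126146), 6055 bp from it, had 17.7 in dox and 25.7 in control cells, a log2 ratio of −0.41. In the stretch free of sites, a region at 83163477 to 83168097 had 7.99 in dox and 16.3 in control cells, a log2 ratio of −0.89 (pileup ratio −1.49, −2.10 to −0.91). A region close by (83155953 to 83157543) had 6.05 in dox and 2.43 in control cells, a log2 ratio of 1.45, but its pileups of 27 and 12 reads gave an interval that includes 0 (0.81, −0.22 to 1.93). The 27 shared regions without a site had a median of −0.19 (−0.60 to 0.35), and the 3 with sites a median of 0.86. Over the genome the medians were −0.01 for 34606 shared regions without a site and 1.03 for 783 with one, so such a contrast is not particular to the locus.

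**Figure D3:**
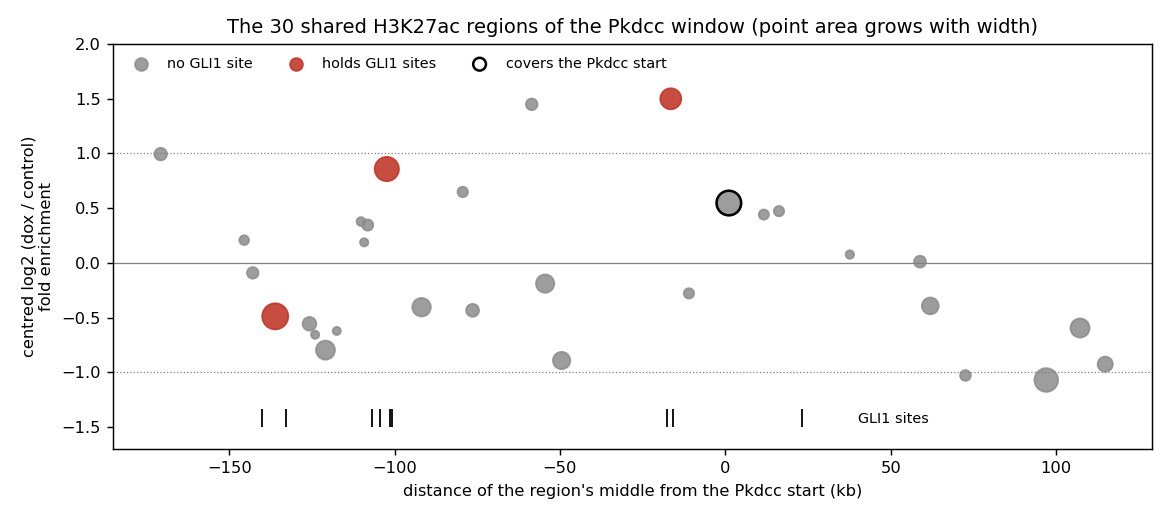
Centred log2 ratio of dox over control fold enrichment (vertical axis) of the 30 shared regions against the distance of their middle from the Pkdcc start in kb. Red points hold GLI1 sites, the ringed point covers the Pkdcc start, point area grows with width and dotted lines mark 1 and −1. Of the 3 red points 2 lie above 0, and the 4 points farthest to the right lie between −1.07 and −0.60.

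At the edges of the window, the region just outside toward Eml4 began 243 bp past it. This region covers the start of Eml4 and had 21.8 in dox and 26.2 in control cells, a log2 ratio of −0.14. The nearest region before the window lay 276161 bp away, with 4.32 in dox and 4.44 in control cells.

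The locus was set beside windows of 400000 bp around 2 Hedgehog targets with more GLI1 sites, without a test of the difference. Around Ptch1, the main Hedgehog receptor, 18 sites came with 85 dox-only, 3 control-only and 16 shared regions, and the log2 ratio of the 7 shared regions that held sites had a median of 3.03. Around Foxf1, a forkhead factor gene, 12 sites came with 70 dox-only, 6 control-only and 24 shared regions, and the 5 shared regions that held sites gave a median of 1.89. The corresponding numbers at Pkdcc were 9, 38, 10 and 30, and the median of its 3 shared regions with a site was 0.86. Over all 783 shared regions with a site the median was 1.03.

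**Figure D4:**
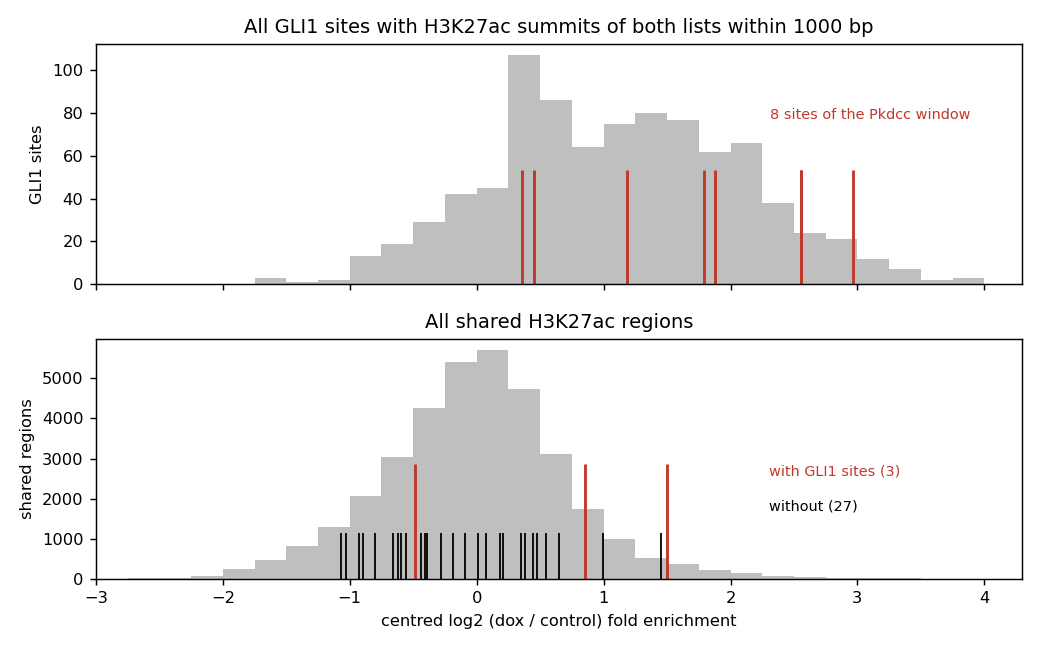
Histograms of the centred log2 ratio, dox over control, of H3K27ac fold enrichment. Top: all 878 GLI1 sites with summits of both lists within 1000 bp, with the 8 such sites of the Pkdcc window in red (2 coincide). Bottom: all shared regions, with the 3 regions of the window that hold sites in red and the other 27 in black. The red lines of the top panel all lie above 0, and the black lines of the bottom panel lie on both sides of it.

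Among kinases that act in the secretory pathway or outside the cell, Pkdcc had the highest fold enrichment at its gene ends in both lists. Of the 11 genes 6 were measured in both lists and 5 in neither, none reached a ratio of 1 in size, and the median was −0.06, against 0.14 over all genes. With regions within 5000 bp of a gene end, the median was 0.16 over 7 genes, so its sign depends on that distance. Fam20b, a xylose kinase gene of proteoglycan synthesis, had 26.1 in dox and 16.8 in control cells, a log2 ratio of 0.77. Dipk2a had 19.9 and 20.1 in dox and control cells, and Fjx1, a homologue of the fly Golgi kinase gene four-jointed, 16.5 and 21.3. Within 100000 bp, 5 of the 11 had a GLI1 site, against 4304 of all 20463 genes analysed, and Pkdcc, chosen for its sites, is 1 of the 5. Pkdcc had 3, and Fam20b, Fam20c, Fjx1 and Dipk1c had 1 each.

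Of 29 analysed genes of the Hedgehog pathway and its targets, both lists covered an end of 20, the dox list that of 6 more and the control list that of 1, which left 2 with none. Of all 20463 genes analysed, 9849 had an end in both lists, 603 in the dox list, 451 in the control list and 9560 in neither. Of the 20, 7 had a ratio of at least 1, against 371 of the 9849 genes (3.77%), and none had one of −1 or less, against 201 of the 9849. The median of the 20 was 0.56, and it was 0.35 over 21 genes when regions within 5000 bp of a gene end were counted. The control level of Pkdcc was higher than that of any of the 7. The closest in control level, Ptch1, had 50.7 in dox and 25.0 in control cells, a log2 ratio of 1.15. Gli1 itself had 35.4 in dox and 9.03 in control cells (2.10), and Hhip, which encodes a protein that binds Hedgehog ligands, 21.6 and 5.15 (2.20). Within 100000 bp, 20 of the 29 genes had a site, against 4304 of all 20463 genes analysed, and Ptch1 had the most with 12.

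The genes most like Pkdcc were sought over 4 values, each scaled over 9848 genes: the number of GLI1 sites within 100000 bp, dox and control fold enrichment at the gene ends, and the median ratio of shared regions within 100000 bp. The number of sites and both fold enrichments were put on a log2 scale first. The 5 nearest were Ier5, Nedd4, Amotl2, Igf1r and Pcif1, at distances of 0.41 to 0.81 standard units. Each had 3 sites, as had Pkdcc. At the gene ends Ier5 had 41.1 in dox and 42.6 in control cells, and Pcif1 53.0 and 45.8.

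H3K27ac at marker genes was set beside the label of the cells. Of all 20463 genes analysed, 9849 had an end in both lists and 9560 in neither, so the small counts below cannot settle cell identity. Of 8 cardiac progenitor markers, Isl1 (21.0 in dox and 20.2 in control cells), Hand2 (10.8 and 24.5) and Tnnt2 (3.74 and 10.4) were covered at an end by regions of both lists. Actc1 had one in control cells alone (4.11), and Nkx2-5, Tbx5, Gata4 and Mef2c had none there in either list. Of 4 neural markers 2 were measured in both lists (Nes at 31.8 in dox and 31.9 in control cells), of 3 pluripotency markers 1 (Nanog at 7.87 in dox and 12.8 in control cells), of 3 endothelial markers 1 and of 4 mesenchyme markers 1. The other 2 endothelial markers, Kdr and Cdh5, were in dox cells alone (2.82 and 3.13). Of 3 endoderm markers, Foxa2 had a region in dox cells alone (34.0) and the other 2 had none. Sox9, a cartilage and limb mesenchyme marker, had 12.8 in dox and 8.70 in control cells, and Runx2 was in dox cells alone (9.22), while Prrx1 (2.80) and Col2a1 (3.66) were in control cells alone. The part of a change in cell types in the values at Pkdcc was not tested, and fewer cells with the mark and less of it per cell cannot be told apart in these pooled lists.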

How the data were processed

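H3K27ac and GLI1 were profiled in 12 samples (6 groups of 2). Bowtie2 2.3.2, SAMtools 1.5 and MACS2 2.1.1 with build mm10 are named in the submitters' processing notes, without their roles. Per the deposited file names, replicates were combined and blacklisted and mitochondrial regions removed. The deposited H3K27ac lists give each summit's fold enrichment (a ratio of pileup to background) with its −log10 p and −log10 q. The deposited GLI1 list gives the −log10 q of 101-bp windows described as replicated and holding a Gli motif. The deposited score column and summit position were read too, and only the position was used. The lowest −log10 q was 1.33 in the dox and 1.31 in the control H3K27ac list. Neither control GLI1 sites nor input profiles were analysed here.

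Summits of an interval were collapsed to the highest fold enrichment, and intervals of both lists sharing at least 1 bp were merged into regions. Log2 ratios were centred on all 35389 shared regions. For all summits a whole-number pileup gave back both fold enrichment and −log10 p to within 0.01. The most common background, 3.63 reads in dox and 2.83 in control, gave the depth ratio of 1.28. Total reads per library are unknown. Intervals of pileup ratios are exact conditional binomial, those of medians come from order statistics, and both assume independent counts. Genes came from RefSeq GRCm38.p6 (21883 protein-coding genes). Gene ends are windows of 1000 bp on each side of both annotated ends, and 1420 genes with an end where peak numbers skip were left out. The steps were tested on simulated data (Python 3.11.15, pandas 2.3.3, scipy 1.17.1).

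Since each condition has 1 pooled list, nothing was tested over replicates, and no p-value is given. The members, gene lists and rules for named genes were chosen with earlier results of these data known. Text names Pkdcc, genes next to it, all sites, regions with a site or extreme values, list members and the 5 most similar genes. Values beside the sites and the split at the last site were added after the data had been seen.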

Additional observations from a re-analysis of the deposited data

How the results depend on the processing

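No paired analysis was possible because each list pools its replicates, and for the same reason no replicate could be left out. Of 47 alternatives for the main values 37 stayed within their error or within 1.5 times the count. The number of GLI1 sites was 5 with sites at or above the list's median −log10 q and 3 within 100000 bp of Pkdcc. Within that distance there were 18 shared and 5 control-only regions. Requiring a −log10 q of 10 left 15 shared, 6 dox-only and 3 control-only regions. Merging intervals up to 500 bp apart gave 20 dox-only regions and 5 of control cells alone. By recovered pileups without centring, the ratio at the Pkdcc gene ends was 0.13. With regions within 5000 bp of a gene end, the list medians were 0.35 for Hedgehog genes and 0.16 for secreted kinases. The median at the sites was 1.68 with summits within 500 bp, 1.71 within 2000 bp and 1.61 by pileups. Beyond the last site the median was −0.94 with width-weighted means and −0.85 by pileups. Of 135 alternative values of single regions, 127 moved by less than their counting error. Leaving out the centring shifted all 30 regions by the same small amount, so those values could not move beyond it. The same holds for the 15 values at a −log10 q of 10. Of 30 regions each, 6 moved by more with pileups and 2 with width-weighted means. The region of sites 1 and 2 had −0.07 with width-weighted means, against −0.49 by its highest summits, and that of sites 7 and 8 fell to 0.93 by pileups. Depth limits the weak regions: the interval of the region with 27 and 12 reads ran from −0.22 to 1.93.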

Other observations

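Over the genome, the value of a merged region and the value beside its GLI1 site could differ in sign, as at sites 1 and 2. Of 842 sites with both measures, 129 lay in a shared region with a centred log2 ratio below 0, and 34 of these had a ratio above 0 from summits within 1000 bp, 13 of them at least 1. The opposite, a region above 0 with summits below 0, was found at 5 sites. The medians over the 842 sites were 1.13 beside the site and 0.92 for the region. At Pkdcc the region of sites 1 and 2 had 1.79 within 1000 bp of its sites and −1.20 farther away, that of sites 7 and 8 had 2.04 and 0.41, and that of sites 3 to 6 had 0.86 and 1.16. A difference between near and far summits was not tested.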
